A study of Homo sapiens with 18 samples.

Results

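The insulin-like growth factor (IGF) axis is described here by 10 human genes: the binding proteins IGFBP2, IGFBP3, IGFBP4, IGFBP5, IGFBP6 and IGFBP7, the ligand IGF2, the receptors IGF1R and IGF2R, and the adaptor IRS2. They were taken by name, as all probes that the array's annotation gives to these genes, which was 14 of the 47323 probes and 10 of the 20046 genes on the array. The members were not selected by a threshold on their values, but they were chosen with earlier results of these data known. Shares over all genes, given beside counts of members, are therefore a description. The genes were read in 3 established colorectal cancer cell lines, SW480, LS174T and HCT116, each given calcitriol at 50 nM for 16 h or ethanol, the solvent, for 16 h. This makes 6 groups of 3 Illumina HT-12 arrays: SW480 calcitriol and SW480 ethanol, LS174T calcitriol and LS174T ethanol, and HCT116 calcitriol and HCT116 ethanol. The comparison within a line asks what calcitriol did to transcript levels, and the comparison of the ethanol arrays asks how the lines differed without calcitriol. No genetic change, transgene or co-treatment is given for any group, so what the 6 groups share is culture as a cancer line without stromal or immune partners, with total RNA taken from the whole culture. In such bulk RNA, fewer cells with a transcript and less of it per cell cannot be told apart. Replicates carry numbers in the labels, with no word on whether they were separate cultures. A p-value here reflects the spread among the arrays of a group, pooled over the 6 groups, and that spread may be technical.

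IGF1 and IGF2 are secreted growth factors that signal through IGF1R, a receptor tyrosine kinase. IGF2R, the mannose 6-phosphate receptor, has no kinase and takes IGF2 into the cell for breakdown. Binding proteins hold the ligands outside the cell, where they prolong their life, keep them from IGF1R or release them after cleavage by proteases such as PAPPA. IRS2 is the docking protein that the active IGF1 and insulin receptors phosphorylate, and it passes the signal to PI3-kinase, AKT and mTOR. In the gut this axis is known for driving growth of crypt epithelium, and gain of IGF2 is a known event in a subset of colorectal tumours. Calcitriol, the active form of vitamin D, acts through the vitamin D receptor, a nuclear receptor that pairs with RXR and binds repeated hexamers related to AGGTCA. IGFBP3 is known as a gene that calcitriol raises in prostate cancer cells.

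The 250 bases before the start are shown for 3 members on which the results turn: IGFBP5, the member that fell with calcitriol in SW480, IRS2, the member that fell in LS174T, and IGFBP4, which differed most between lines. The sequences are RefSeq's on GRCh38.p14, written 5′ to 3′ on the strand of the gene. Capitals mark a TATAAA or a vitamin D receptor hexamer (AGGTCA, or GGGTCA where the first base differs, AGTTCA where the third base does and GGTTCA where both do, searched on both strands). IGFBP5 lies on the minus strand at chr2:216695550-216695799, IRS2 on the minus strand at chr13:109786584-109786833 and IGFBP4 on the plus strand at chr17:40443200-40443449.
IGFBP5: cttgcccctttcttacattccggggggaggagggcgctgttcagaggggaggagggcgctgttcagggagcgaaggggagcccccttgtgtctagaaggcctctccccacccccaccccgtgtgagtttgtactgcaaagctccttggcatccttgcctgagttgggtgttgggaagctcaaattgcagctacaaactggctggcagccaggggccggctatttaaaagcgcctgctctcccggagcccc
IRS2: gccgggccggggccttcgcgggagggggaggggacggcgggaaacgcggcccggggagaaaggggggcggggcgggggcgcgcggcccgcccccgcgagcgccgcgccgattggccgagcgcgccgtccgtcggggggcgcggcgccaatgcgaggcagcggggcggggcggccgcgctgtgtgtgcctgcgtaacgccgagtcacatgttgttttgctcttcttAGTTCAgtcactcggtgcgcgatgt
IGFBP4: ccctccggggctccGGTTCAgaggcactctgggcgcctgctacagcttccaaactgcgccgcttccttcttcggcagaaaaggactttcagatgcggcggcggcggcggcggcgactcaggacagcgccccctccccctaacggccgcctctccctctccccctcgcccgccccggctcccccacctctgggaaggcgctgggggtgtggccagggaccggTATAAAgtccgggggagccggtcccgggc
The window of IGFBP5 held neither motif. In IRS2 AGTTCA began 25 bases before the start, and in IGFBP4 GGTTCA began 236 and TATAAA 29 bases before it. Of the 10 members, 8 were in the promoter table, and IGFBP7 and IGF2 were not matched. A hexamer was found in 5 of these 8 and in 34.0% of all 27305 promoters, taking the first listed start of each gene. IGFBP2 has 3 starts in the table, and of these only the first holds a hexamer. The direct repeat, 2 hexamers in the same orientation 3 bases apart, was found in 0 of the 8 and in 0.0659% of all promoters. TATAAA, searched on the gene's strand, was found in 1 of the 8, IGFBP4, and in 7.17% of all. The windows also differed in their CpG dinucleotides: IGFBP5 held 8, IRS2 42 and IGF1R 48, against a median of 11 over all promoters. A match is a description of letters in this window and not a site shown to be bound.

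Arrays detected between 19295 and 21028 probes each, which was 40.8% to 44.4%, where a probe counts as detected when the deposited detection p is under 0.05. Arrays of the same group had correlations of 0.991 to 0.993, with a median SD of 0.13 log2 units. CYP24A1, which degrades calcitriol and is its best known target, was higher with calcitriol in all lines, by at least 176-fold in LS174T, 1.31 ± 0.10 (SE) log2 units in SW480 and 1.56 ± 0.10 in HCT116. All tests below were fitted over 13712 genes. The epithelial markers EPCAM, KRT8, KRT18, KRT19 and CDX2 were detected on all 18 arrays. All 10 colorectal markers were detected in LS174T, whereas CDX1 and LGALS4 were detected on no array of SW480 or HCT116, and VIL1 and CDH17 on none of HCT116.

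Levels are normalized log2 intensities. Each probe has its own brightness, so levels were compared between groups and not between genes. Of the 14 probes, 11 were detected on at least 3 arrays, and 9 of the 10 genes could be tested. IGF2, the fetal growth factor of the axis, was the exception. Its 3 probes were detected on 0 of the 18 arrays and read 4.48 to 5.32, where the dimmest detected probe of an array read 5.39 to 5.57. IGF2 transcripts therefore could not be measured in any of the 3 lines, with or without calcitriol.

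IGFBP3, the main IGF carrier of serum, stood at the edge of detection. Its brighter probe was detected on 5 of 18 arrays and its other probe on 4, and the correlation of both over the 18 arrays was 0.021, which describes 2 dim probes on the same arrays. The brighter probe read 5.71, 5.58 and 5.64 in SW480 calcitriol, against 5.08, 5.50 and 5.22 in SW480 ethanol. All SW480 calcitriol arrays were detected and lay above the ethanol arrays, of which 1 was detected. The difference of 0.37 ± 0.13 (SE) log2 units did not pass (adjusted p = 0.154). This probe met the filter of 3 detected arrays only through SW480 calcitriol, the group where it was high, so the separation is a description. The other probe pointed the opposite way, at 5.66, 4.89 and 5.00 in SW480 calcitriol, against 5.23, 6.04 and 5.23 in SW480 ethanol, a difference of -0.32 ± 0.27 with overlapping groups (adjusted p = 0.675 over probes). In LS174T the brighter probe averaged 5.28 ± 0.21 (SD, n = 3) with calcitriol and 5.20 ± 0.10 in ethanol, and in HCT116 5.25 ± 0.21 and 5.28 ± 0.12. A change of IGFBP3 with calcitriol was not detectable at this signal.

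**Figure D1:**
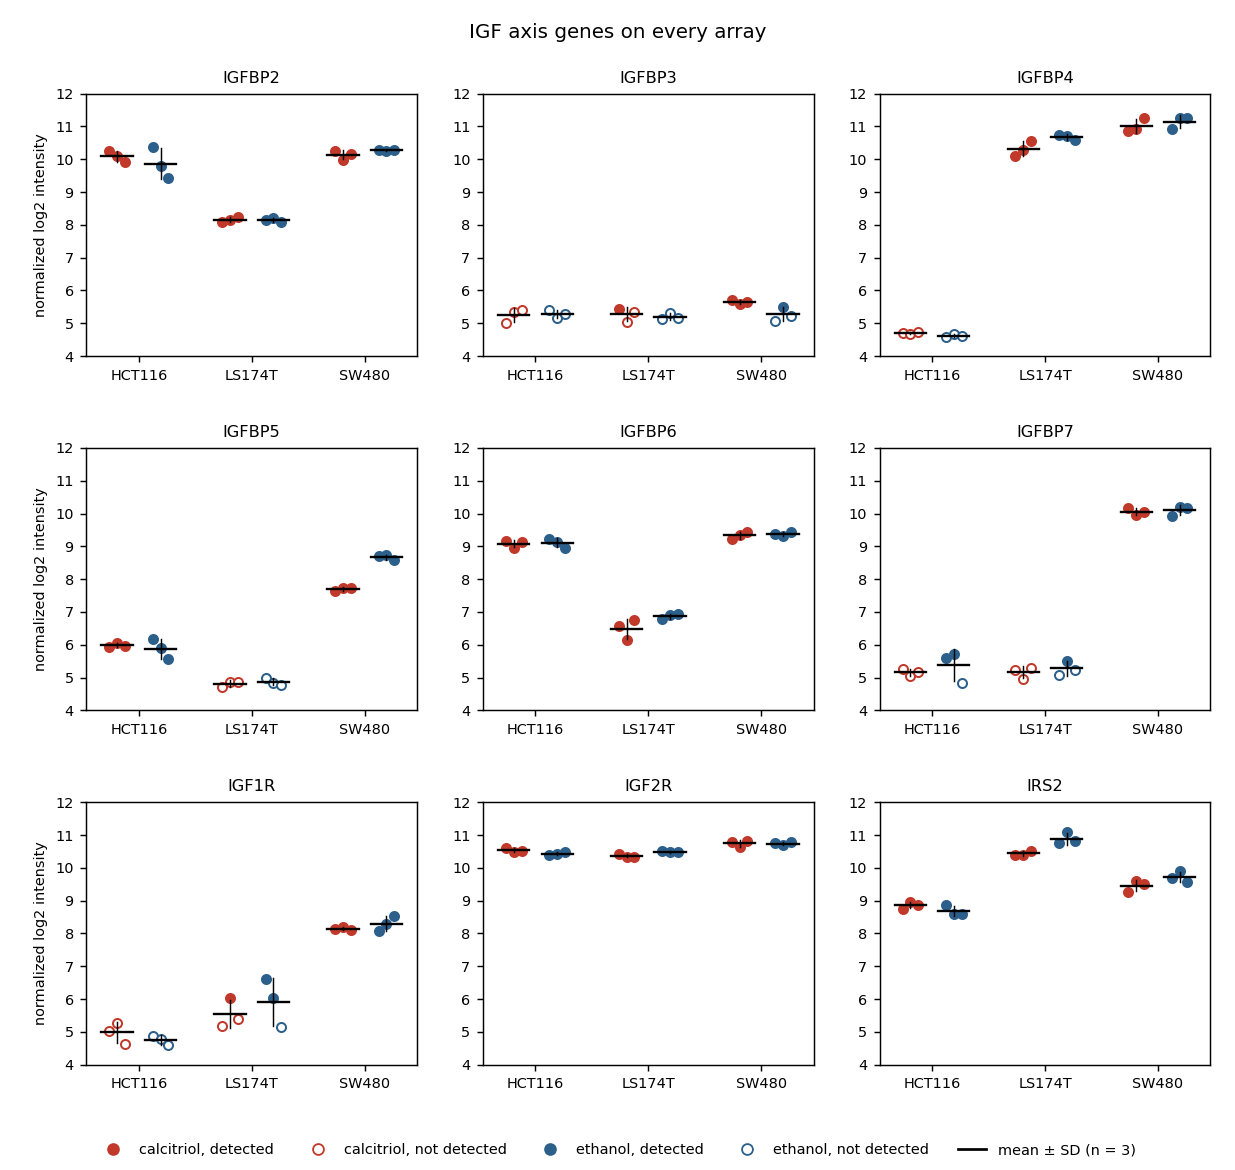
Normalized log2 intensity of the brightest probe of the 9 measured genes on each of the 18 arrays, calcitriol (red) left of ethanol (blue) in each line; open circles are arrays where the probe was not detected, and bars give the mean and SD of 3 arrays. IGFBP5 in SW480 lies between 7.64 and 7.73 with calcitriol and between 8.57 and 8.73 in ethanol, while IGFBP4, IGFBP7 and IGF1R differ mainly between lines.

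In SW480, IGFBP5, a binding protein that also attaches to extracellular matrix, was lower with calcitriol. It read 7.64, 7.72 and 7.73 in SW480 calcitriol, against 8.69, 8.73 and 8.57 in SW480 ethanol. The groups did not overlap: the lowest ethanol array lay above the highest calcitriol array. The difference was -0.97 ± 0.12 (SE) log2 units, 1.95-fold lower (95% interval -1.22 to -0.71, adjusted p = 0.000381). IGFBP5 was the only 1 of the 9 members to pass in SW480, where 2.46% of all genes passed, 0.788% higher and 1.68% lower. A second, dimmer IGFBP5 probe read 5.13, 5.40 and 5.84 in SW480 calcitriol, against 6.32, 6.48 and 5.86 in SW480 ethanol. Its difference was -0.76, and its groups were separated only by 5.84 against 5.86. This probe was detected on 3 SW480 ethanol arrays, 2 SW480 calcitriol arrays and no other. It therefore passed the filter only through the group where it was high, and its values are a description with no test. Both probes are annotated to the same IGFBP5 transcript and are not replicates of each other.

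The IGFBP5 fall in SW480 passed without each of the 18 arrays in turn, at -1.01 to -0.93. It also passed under each of the 9 other processing settings, at -1.14 to -0.68. IGFBP2, which RefSeq's gene order places beside IGFBP5 on chromosome 2, did not pass in SW480: it averaged 10.14 ± 0.14 (SD, n = 3) with calcitriol and 10.27 ± 0.02 in ethanol. Markers of stroma, a source of IGFBP5 in tissue, were checked on the same arrays. The mean of the 10 listed stromal genes was 5.90 to 5.95 per array in SW480 calcitriol and 5.75 to 5.86 in SW480 ethanol. COL3A1, PDGFRA and THY1 were detected on no array, while COL1A1 averaged 7.64 in SW480 calcitriol and 6.65 in SW480 ethanol, and PDGFRB 9.65 and 9.78. The stromal mean was above its ethanol values on the arrays where IGFBP5 was lower, and the part of these genes in the result was not tested.

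**Figure D2:**
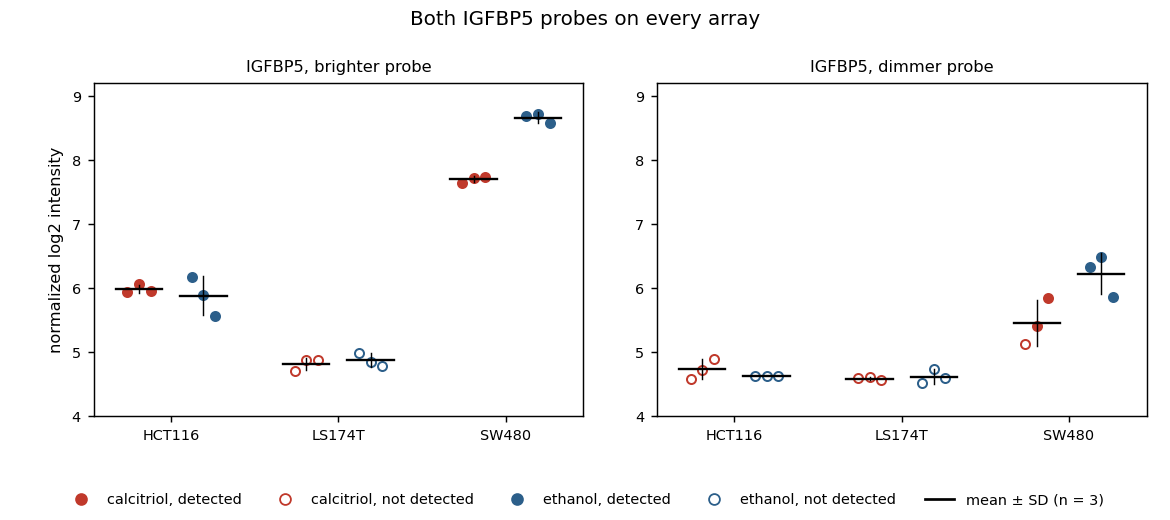
Normalized log2 intensity of the brighter (left) and dimmer (right) IGFBP5 probe on each array, with the mean and SD of 3 arrays, calcitriol left of ethanol in each line; open circles are not detected. In SW480 calcitriol the brighter probe averages 7.70 and in SW480 ethanol 8.66, and the dimmer probe 5.46 and 6.22.

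In HCT116 IGFBP5 read 5.94, 6.06 and 5.95 with calcitriol, against 6.17, 5.89 and 5.56 in ethanol, and the groups overlapped. These levels were close to the dimmest detected probe of an array (5.39 to 5.57), which left little room for a fall. In LS174T it was not detected on any array with calcitriol or in ethanol, so a fall there could not have been seen. The response of IGFBP5 differed among the lines by an F-test of the difference itself (adjusted p = 0.00218, where 5.55% of all genes passed). IGFBP5 was the only member to pass it. The response in SW480 was more negative than that in HCT116 by -1.07 ± 0.17 log2 units (adjusted p = 0.00565, where 2.49% of all genes passed and 1.41% were lower) and than that in LS174T by -0.91 ± 0.17 (adjusted p = 0.00570, where 3.12% passed and 1.88% were lower), with LS174T at the level of undetected probes. HCT116 stood close to that level, and the part of low signal in these differences was not tested. For the dimmer probe, not detected in HCT116 or LS174T, the F-test over probes did not pass (adjusted p = 0.0863). That probe had passed the filter only through SW480 ethanol.

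In LS174T, IRS2, the docking protein below the receptors, was lower with calcitriol. It read 10.39, 10.41 and 10.53 in LS174T calcitriol, against 10.76, 11.10 and 10.81 in LS174T ethanol. The groups did not overlap. The difference was -0.45 ± 0.12 (SE) log2 units, 1.36-fold lower (95% interval -0.70 to -0.19, adjusted p = 0.0369). IRS2 was the only 1 of the 9 members to pass in LS174T, where 6.05% of all genes passed, 2.81% higher and 3.24% lower, so 1 of 9 is near the background. This call was not firm. It was lost when arrays were scaled by their medians instead of by quantiles (-0.35, adjusted p = 0.321) in a fit of the 2 LS174T groups alone (adjusted p = 0.0993) and in the fit over all 25586 probes (adjusted p = 0.0591). It was also lost without LS174T ethanol replicate 2, the highest ethanol array (-0.34, adjusted p = 0.171), and without LS174T calcitriol replicate 1, 2 or 3 (adjusted p = 0.120, 0.111 and 0.0540).

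IRS2 read 9.27, 9.61 and 9.51 in SW480 calcitriol, against 9.69, 9.89 and 9.57 in SW480 ethanol, a difference of -0.26 ± 0.12 that did not pass (adjusted p = 0.293). In HCT116 it read 8.75, 8.95 and 8.88 with calcitriol, against 8.86, 8.60 and 8.60 in ethanol (0.17 ± 0.12, adjusted p = 0.670). The difference was thus below 0 in LS174T and SW480 and above 0 in HCT116, but the F-test for different IRS2 responses did not pass (adjusted p = 0.0795).

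LS174T arrays were also separated by treatment for IGFBP4, IGFBP6 and IGF2R, so that 4 of the 9 members did not overlap, against 23.5% of all genes. IGFBP4, a binding protein that PAPPA cleaves, read 10.10, 10.29 and 10.56 in LS174T calcitriol, against 10.75, 10.70 and 10.59 in LS174T ethanol (-0.36 ± 0.13, adjusted p = 0.118). IGFBP6, which prefers IGF2 over IGF1, read 6.57, 6.14 and 6.75 in LS174T calcitriol, against 6.77, 6.90 and 6.93 in LS174T ethanol (-0.38 ± 0.13, adjusted p = 0.0964). IGF2R, the clearance receptor, was at 10.42, 10.34 and 10.34 in LS174T calcitriol, against 10.52, 10.48 and 10.47 in LS174T ethanol (-0.13 ± 0.07, adjusted p = 0.369). None of these 3 passed with all arrays. Without LS174T calcitriol replicate 3, IGFBP4 (-0.49, adjusted p = 0.0401) and IGFBP6 (-0.52, adjusted p = 0.0264) did. Without background correction IGFBP4 passed as well (-0.33, adjusted p = 0.0330). The median difference of the 9 members in LS174T was -0.13, against -0.02 over all genes.

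In HCT116 0 of the 9 members passed in limma, with 0 at an unadjusted p under 0.05, and 0.0729% of all genes did. Groups did not overlap for 2 members, IGF2R and the undetected IGFBP4, against 15.5% of all genes. IGF2R read 10.60, 10.48 and 10.52 in HCT116 calcitriol, against 10.39, 10.43 and 10.47 in HCT116 ethanol (0.10 ± 0.07, adjusted p = 0.670). The intervals of the 9 members in HCT116 ran from -0.60 at the lowest to 0.83 at the highest, and that upper end was for IGF1R, which was not detected there.

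Several well detected members did not pass, and their intervals limit the size of a response. The SE of a gene is shared by the 3 lines, so each interval also carries the spread in the other lines. In SW480, IGFBP7, a weak IGF binder abundant in vessel walls and stroma, averaged 10.06 ± 0.11 (SD, n = 3) with calcitriol and 10.10 ± 0.15 in ethanol, a difference of -0.04 (95% interval -0.42 to 0.35). IGFBP6 averaged 9.34 ± 0.10 and 9.37 ± 0.06 (-0.03, 95% interval -0.30 to 0.24), and IGF2R 10.74 ± 0.10 and 10.74 ± 0.05 (0.0017, 95% interval -0.15 to 0.15). IGF1R, the signalling receptor, averaged 8.15 ± 0.05 with calcitriol and 8.29 ± 0.23 in ethanol (-0.14, 95% interval -0.74 to 0.46), the widest interval of a detected member in this line. The SD of IGF1R was larger in LS174T, at 0.43 with calcitriol and 0.74 in ethanol, and that spread enters this interval. Beside IGFBP5, the IGFBP3 probe described above was the other SW480 member without overlap, which makes 2 of 9, against 22.1% of all genes. Since that probe passed the filter only through SW480 calcitriol, its place in this count is a description. IGFBP2, a binding protein often raised in tumours, averaged 8.16 ± 0.08 in LS174T calcitriol and 8.15 ± 0.06 in LS174T ethanol (0.0057, 95% interval -0.34 to 0.35). Averaged over the lines with equal weight, IGFBP5 was the 1 member to pass, at -0.31 ± 0.07 (adjusted p = 0.0221, where 2.73% of all genes passed and 1.42% fell). Its responses were -0.97 in SW480, -0.06 in LS174T, where it was undetected, and 0.11 in HCT116, so the average is no fall common to the lines. That average was lost with a variance trend and robust fit (adjusted p = 0.0684) and without LS174T ethanol replicate 1, LS174T calcitriol replicate 1 or SW480 ethanol replicate 2 (adjusted p = 0.0513, 0.0505 and 0.0508).

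**Figure D3:**
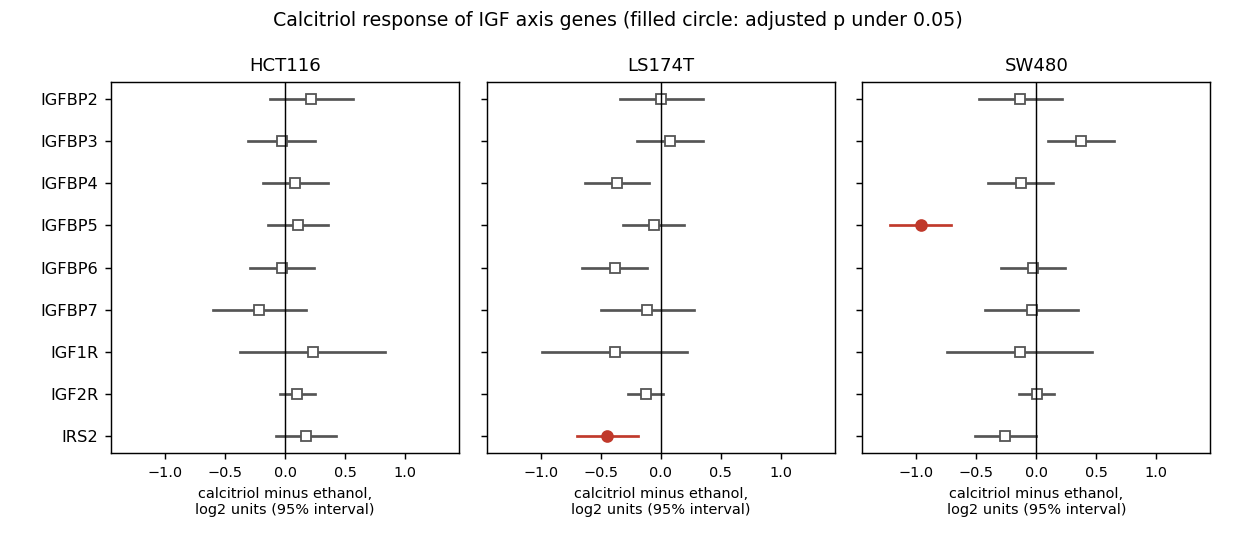
Calcitriol minus ethanol in log2 units for the 9 measured members in each line, with 95% intervals from the fit; filled red circles passed an adjusted p of 0.05, open squares did not. IGFBP5 in SW480 (-0.97) and IRS2 in LS174T (-0.45) are the filled points, and none is filled in HCT116.

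In ethanol the lines had different sets of binding proteins and receptors. Of the 9 members, 8 differed among the lines by the F-test, all but IGFBP3 (adjusted p = 0.839). Since 79.7% of all genes did so, that share is near the background. The order of the levels is therefore given gene by gene. SW480 was above HCT116 for 7 members and below it for 0 (64.4% of all genes passed, 32.8% higher and 31.6% lower in SW480). SW480 was above LS174T for 7 and below it for 1, IRS2 (63.8% passed, 31.9% higher and 32.0% lower in SW480). LS174T was above HCT116 for 3 and below it for 3 (60.4% passed, 31.1% higher and 29.3% lower in LS174T).

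IGFBP4 was near the top of its range in SW480 and LS174T and undetected in HCT116. It averaged 11.14 ± 0.20 (SD, n = 3) in SW480, 10.68 ± 0.08 in LS174T and 4.62 ± 0.06 in HCT116, the last not detected on any array. That makes it at least 52.1-fold higher in SW480 and at least 37.9-fold higher in LS174T than in HCT116 (adjusted p = 1.99e-16 and 3.32e-16). These are lower bounds on the background-corrected scale, set against the dimmest detected probe of each HCT116 array. Under the 9 other processing settings the log2 differences went as low as 4.28 for SW480 and 3.84 for LS174T. Those values lie under these bounds, and both differences passed under each setting. SW480 was above LS174T by 0.46 ± 0.13 (SE) log2 units (adjusted p = 0.00459).

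IGFBP7 was high in SW480 alone of the 3 lines. It read 9.92, 10.19 and 10.18 in SW480 ethanol, against 5.09, 5.51 and 5.24 in LS174T ethanol and 5.59, 5.72 and 4.84 in HCT116 ethanol, where it was detected on 1 of 3 arrays in LS174T and 2 of 3 in HCT116. SW480 was 4.82 ± 0.18 (SE) log2 units above LS174T (adjusted p = 5.64e-13) and 4.71 ± 0.18 above HCT116 (adjusted p = 1.01e-12). The LS174T and HCT116 means of 5.28 and 5.38 lay under the dimmest detected probe of an array, so these differences do not measure how much lower those lines were, and with no background correction they were 2.96 and 2.93. LS174T minus HCT116 did not pass (adjusted p = 0.656), but did without HCT116 ethanol replicate 3 (-0.38, adjusted p = 0.0287).

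IGFBP5 and IGF1R were highest in SW480 too. IGFBP5 averaged 8.66 ± 0.08 in SW480, 4.87 ± 0.11 in LS174T and 5.88 ± 0.30 in HCT116 (SD, n = 3 each). It was at least 9.25-fold higher in SW480 than in undetected LS174T, 2.79 ± 0.12 (SE) log2 units higher in SW480 than in HCT116, and at least 1.34-fold lower in LS174T than in HCT116. IGF1R averaged 8.29 ± 0.23 in SW480, 5.92 ± 0.74 in LS174T, with 2 of 3 arrays detected, and 4.75 ± 0.15 in HCT116, with none. It was 2.37 ± 0.28 log2 units higher in SW480 than in LS174T, and at least 7.22-fold higher in SW480 and at least 1.40-fold higher in LS174T than in HCT116. Adjusted p-values of these 6 differences were 0.00195 or lower. With no background correction the log2 differences were smaller, such as 1.55 for IGFBP5 in SW480 minus HCT116 and 1.25 for IGF1R in SW480 minus LS174T, and all 6 passed. Under the other processing settings IGFBP5 went down to 1.93 in SW480 minus LS174T and to -0.38 in LS174T minus HCT116. IGF1R went down to 1.74 in SW480 minus HCT116. These sizes lie under the bounds given above.

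IGFBP2 and IGFBP6 were lowest in LS174T. IGFBP2 averaged 10.27 ± 0.02 in SW480, 8.15 ± 0.06 in LS174T and 9.86 ± 0.47 in HCT116 (SD, n = 3 each), which put LS174T below HCT116 (-1.72 ± 0.16 log2 units, SE, adjusted p = 1.21e-07). The SW480 and HCT116 groups overlapped, and their difference of 0.41 ± 0.16 (adjusted p = 0.0392) was lost without any 1 of 5 ethanol arrays, HCT116 replicates 2 and 3 and SW480 replicates 1 to 3 (adjusted p up to 0.262), in a fit of the 2 groups alone (0.131) and with no filter (0.0528). IGFBP6 averaged 9.37 ± 0.06 in SW480, 6.87 ± 0.08 in LS174T and 9.11 ± 0.14 in HCT116. LS174T was below HCT116 (-2.24 ± 0.13 log2 units, SE, adjusted p = 1.56e-10), and SW480 minus HCT116 did not pass (0.26 ± 0.13, adjusted p = 0.0794). That difference passed with no background correction (0.22, adjusted p = 0.0144), with median scaling (0.65, 0.00133) and without LS174T calcitriol replicate 2 (0.0240) or 3 (0.0486). Median scaling also moved the IGFBP2 difference between SW480 and HCT116, to 0.78. With quantile normalization that difference was 0.65 without HCT116 ethanol replicate 1 and 0.19 without replicate 3.

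IRS2 was highest in LS174T and lowest in HCT116. It averaged 9.72 ± 0.16 in SW480, 10.89 ± 0.19 in LS174T and 8.69 ± 0.15 in HCT116 (SD, n = 3 each). SW480 lay -1.17 ± 0.12 (SE) log2 units from LS174T (adjusted p = 2.28e-07) and 1.03 ± 0.12 above HCT116 (adjusted p = 1.02e-06), and LS174T lay 2.20 ± 0.12 above HCT116 (adjusted p = 8.97e-11). Among the members detected on all arrays, IGF2R varied least, at 10.74 ± 0.05 in SW480, 10.49 ± 0.02 in LS174T and 10.43 ± 0.04 in HCT116. SW480 was above LS174T by 0.25 ± 0.07 and above HCT116 by 0.31 ± 0.07 (adjusted p = 0.00487 and 0.000955), which became 0.46 and 0.70 with median scaling, while LS174T minus HCT116 did not pass (adjusted p = 0.494). Stromal markers also differed between the lines. PDGFRB averaged 9.78 in SW480 ethanol, 5.10 in LS174T ethanol and 4.72 in HCT116 ethanol, and the mean of the 10 stromal genes was 5.75 to 5.86, 5.42 to 5.59 and 5.37 to 5.57 per array. COL1A1 was also highest in SW480 ethanol, at 6.65, against 5.32 in LS174T ethanol and 6.13 in HCT116 ethanol. ACTA2 went the other way, at 7.42 in SW480 ethanol, 8.04 in LS174T ethanol and 8.88 in HCT116 ethanol. LUM was detected in LS174T alone, where it averaged 6.87 in ethanol. COL3A1, PDGFRA and THY1 were detected in none of the lines, and the part of such genes in the line differences was not tested.

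**Figure D4:**
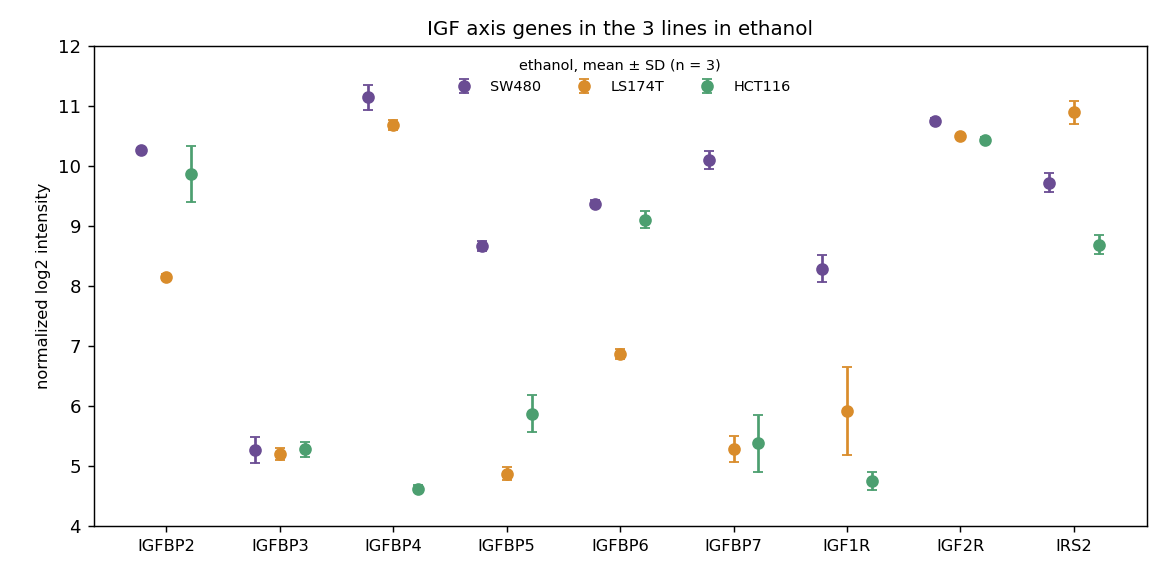
Mean normalized log2 intensity of the 9 measured members in ethanol, with the SD of 3 arrays, in SW480 (purple), LS174T (orange) and HCT116 (green). SW480 is the highest line for IGFBP4, IGFBP5, IGFBP7 and IGF1R, LS174T is the lowest for IGFBP2 and IGFBP6 and the highest for IRS2, and IGFBP3 lies between 5.20 and 5.28 in all.

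The genes with the pattern most like each member were named by Pearson's r over the 18 arrays among 13711 other genes. These arrays form 6 groups and the lines differ widely, so high values are common and r is given as a description. IGFBP5 was followed most closely by EFHD1 (0.991) and MAGED2 (0.988), IGFBP4 by QPRT (0.997) and ZNF529 (0.996), and IGFBP7 by SPATC1L (0.997) and SLC2A14 (0.996). IGFBP6 was nearest to FBLN1 (0.992) and MSX1 (0.992), IGFBP2 to SCARNA13 (0.983) and TRIB2 (0.983), and IRS2 to TCEA3 (0.991) and HKDC1 (0.984). IGF1R was nearest to BRI3 (0.980) and GYG2 (0.978), and IGF2R to TM9SF4 (0.945) and TRIP11 (0.943). The dim IGFBP3 reached only 0.776 with CFAP57 and 0.726 with FCHSD2. No gene in these pairs is itself a member of the axis.

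Around the members, a list of 56 further genes of the pathway was read, of which 44 could be tested. This list too was chosen with earlier results of these data known, so the shares over all genes are a description. In SW480 0 of the 44 rose and 3 fell (2.46% of all genes passed), in LS174T 1 rose and 3 fell (6.05%), 1 of the falls being PIK3R3, detected in LS174T ethanol alone, and in HCT116 0 passed in limma (0.0729%). The median difference of the 44 was -0.01 in SW480, -0.05 in LS174T and 0.07 in HCT116, against -0.0070, -0.017 and 0.0024 over all genes. The ligand and binding protein neighbours gave no call with calcitriol, nor did the IGFBP proteases with their inhibitors or the IGF2 mRNA-binding proteins. H19, the imprinted RNA gene near IGF2, picked after its values were seen, averaged 13.57 ± 0.06 (SD, n = 3) in LS174T calcitriol and 13.52 ± 0.01 in LS174T ethanol, and was not detected on any array of SW480 or HCT116. In LS174T, H19 was thus bright on the same arrays where the 3 IGF2 probes were undetected.

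The calls lay in the adaptors and the relay to AKT and mTOR. In SW480, FOXO4, a transcription factor that AKT keeps out of the nucleus, averaged 8.78 ± 0.13 with calcitriol and 9.37 ± 0.05 in ethanol (-0.60 ± 0.09 SE, adjusted p = 0.00230). GAB1, a docking protein of receptor kinases, averaged 5.37 ± 0.23 and 6.04 ± 0.21 (-0.67 ± 0.15, adjusted p = 0.0290). It was detected on 2 of 3 SW480 calcitriol arrays, with a mean there under the dimmest detected probe of an array (5.39 to 5.57). SOS1, the exchange factor that loads RAS, averaged 6.30 ± 0.24 and 6.89 ± 0.08 (-0.59 ± 0.14, adjusted p = 0.0336). All 3 failed in a fit of the 2 SW480 groups alone (adjusted p = 0.0862, 0.132 and 0.131 for FOXO4, GAB1 and SOS1). SOS1 was also lost without any 1 of 5 SW480 arrays (adjusted p up to 0.133), which left replicate 3 of SW480 calcitriol as the 1 SW480 array it could spare, and in the fit over all probes (0.0557). With no background correction it was -0.26 and passed. GAB1 was lost without SW480 ethanol replicate 2 (0.146) or SW480 calcitriol replicate 1 (0.126), with no background correction (-0.23, 0.0695) and as the mean of its probes (0.0622), its second detected probe differing by -0.18.

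In LS174T, FOXO1, the related factor that AKT also inactivates, averaged 8.67 ± 0.11 with calcitriol and 8.06 ± 0.02 in ethanol (0.61 ± 0.11 SE, adjusted p = 0.00308), the only rise of the list. PIK3R3, a regulatory subunit of PI3-kinase, averaged 5.35 ± 0.14 with calcitriol and 6.25 ± 0.20 in ethanol in LS174T. It was detected on the 3 LS174T ethanol arrays and on no other array. It therefore entered the fit only through the group where it was high, and its values are a description with no test. GRB10, an adaptor that dampens the IGF1 and insulin receptors, averaged 8.04 ± 0.03 with calcitriol and 8.50 ± 0.17 in ethanol (-0.46 ± 0.09, adjusted p = 0.00381). Its 2 other detected probes differed by -0.39 and 0.31 and did not pass, so its probes disagreed, and the mean of them gave -0.18 (adjusted p = 0.270). TSC1, a brake on mTOR, averaged 8.67 ± 0.11 and 8.99 ± 0.02 (-0.32 ± 0.09, adjusted p = 0.0375), with 0.15 and -0.03 on its 2 other probes and a mean of -0.07 (adjusted p = 0.781). GRB10 and TSC1 were also lost with median scaling (adjusted p = 0.123 and 0.490) and in a fit of the 2 LS174T groups alone (0.0713 and 0.117). TSC1 was lost too without each of the 3 LS174T ethanol arrays and without LS174T calcitriol replicate 2 or 3 (adjusted p 0.0785 to 0.137), and in the fit over all probes (0.0666).

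**Figure D5:**
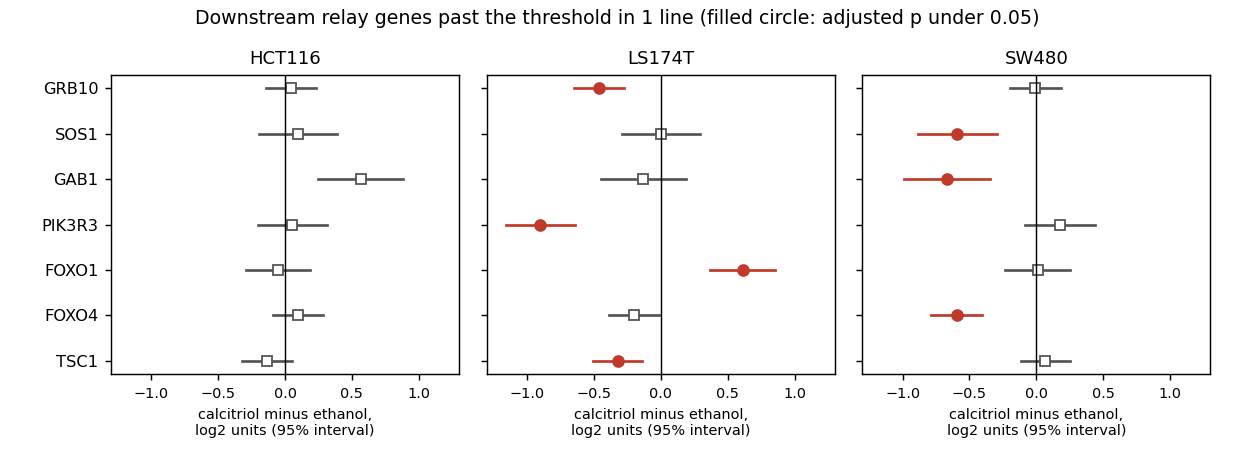
Calcitriol minus ethanol in log2 units, with 95% intervals, in each line for the 7 further pathway genes that passed in at least 1 line; filled red circles passed an adjusted p of 0.05. FOXO1 in LS174T (0.61) is the only filled point above 0, and no gene is filled in more than 1 line; PIK3R3 entered the fit only through LS174T ethanol, where it was high, so its point is no test.

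Among these 7 genes the response differed between lines by the F-test for GAB1, FOXO4, FOXO1 and GRB10 (adjusted p = 0.00741, 0.0106, 0.0339 and 0.0368, where 5.55% of all genes passed). PIK3R3 is left out of this count. The 7 were named because they passed with calcitriol in a line of these same data, which favours a differing response. The share over all genes is therefore not a fair background for them. For GRB10 that call was lost with median scaling (0.150) and as the mean of its probes (0.703). GAB1 differed by -0.67 in SW480, -0.13 in LS174T and 0.57 in HCT116, the last not passing (adjusted p = 0.217). It was detected on 2 of 3 arrays in SW480 calcitriol and in HCT116 ethanol, so both differences lie near the edge of detection. FOXO4 also passed in the average over the lines (-0.23, adjusted p = 0.0197), but not with median scaling (-0.21, adjusted p = 0.141). Its responses were -0.60 in SW480, -0.20 in LS174T and 0.10 in HCT116. Between the lines in ethanol, 3 genes of the list were picked after their values were seen. IRS1, the sister of IRS2, averaged 7.26 ± 0.16 in SW480, 7.60 ± 0.05 in LS174T and 10.85 ± 0.07 in HCT116 (SD, n = 3 each), so that the line with the lowest IRS2 had the highest IRS1. GRB14, an adaptor related to GRB10, was undetected in SW480 and LS174T, at least 9.79-fold and 9.54-fold below HCT116, where it averaged 8.71 ± 0.04. HTRA1, a protease that cleaves IGFBP5, averaged 7.50 ± 0.25 in SW480 and was undetected in LS174T and HCT116, at least 4.12-fold and 4.17-fold higher in SW480. Its SW480 level was 7.50 ± 0.10 with calcitriol and 7.50 ± 0.25 in ethanol (0.0021, adjusted p = 0.996). GRB14 and HTRA1 each passed the filter only through the line where they were high, so their folds between lines are a description with no test.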

How the data were processed

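The study measured total RNA from 3 colorectal cancer cell lines on 18 single-colour Illumina HT-12 arrays, and each array was grouped by the line and treatment in its labels. Per the file headers, the authors deposited raw probe intensity (linear) paired with a detection p-value for every array. The authors also deposited log2 values of the same arrays. The submitters' processing notes name limma, with no version. The bead summary step was not given in the sources. Each of the 18 raw columns matched its own deposited array best. Against the deposited log2 table, the values recomputed from the raw columns were off by 0.000195 at the median, 0.201 at most and 0.00158 at most on member probes, so the deposited table is background-corrected, quantile-normalized log2 intensity. Its array medians were 5.187 to 5.189.

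From the raw intensities, 887 rows without a probe identifier were left out. Values were background-corrected with the detection p-values and quantile-normalized with neqc (limma 3.58.1, R 4.3.3, offset 16). The offset shrinks log2 differences of dim probes, but differences could still be larger than without background correction. For IGFBP5 in SW480 minus HCT116 they were 2.79 and 1.55 log2 units. Probes detected at p under 0.05 on at least 3 of 18 arrays were kept, 25586 in all. The platform annotation gave 1 symbol for 30113 probes, more than 1 for 8, and did not list 17202. Entrez identifiers brought 30074 of these up to the RefSeq symbol. A gene was represented by its brightest probe, giving 13712 genes. The 6 group means were fitted with lmFit and eBayes, with Benjamini-Hochberg adjustment over the 13712 genes and a threshold of 0.05, and member probes were fitted again over all 25586 probes. Where a probe was undetected on all arrays of a group, the fold is a lower bound against, per array, the higher of its own value and the dimmest detected probe. These bounds hold for the background-corrected scale.

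All members are named whatever their values. The 56 further pathway genes are named where they passed with calcitriol in at least 1 line, up to 4 per list. For each member, the 2 genes with the most similar pattern are named. Members and lists were chosen with earlier results of these data known. The number of arrays limits the precision. The code was tested on simulated data. Alternatives were no background correction, median scaling, no or a stricter filter, the mean of a gene's probes, the deposited values, a variance trend with robust fit, the replicate number as a block, the 2 groups alone and leaving out each array. Sequences are RefSeq's on GRCh38.p14. The files name no build.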

Additional observations from a re-analysis of the deposited data

Results flagged for a closer look

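The calcitriol response of 5 genes differed among the 3 lines by an F-test of the difference itself, adjusted over all genes. GAB1, FOXO4, FOXO1 and GRB10 had been named because they passed with calcitriol in a line of the same data, which favours such a difference. IGFBP5 (adjusted p = 0.00218) differed by -0.97 log2 units in SW480, -0.06 in LS174T, where it was undetected, and 0.11 in HCT116, where it was near the edge of detection. GAB1 (adjusted p = 0.00741), near the edge of detection, differed by -0.67 in SW480, -0.13 in LS174T and 0.57 in HCT116. FOXO4 (adjusted p = 0.0106) differed by -0.60 in SW480, -0.20 in LS174T and 0.10 in HCT116. FOXO1 (adjusted p = 0.0339) differed by 0.01 in SW480, 0.61 in LS174T and -0.05 in HCT116. GRB10 (adjusted p = 0.0368) differed by -0.01 in SW480, -0.46 in LS174T and 0.05 in HCT116. Leaving out 1 array at a time, IGFBP5, GAB1 and FOXO4 passed in all 18 cases, FOXO1 in 9 (up to 0.0827) and GRB10 in 5 (up to 0.0899). GRB10 was also lost with median scaling (0.150) and as the mean of its probes (0.703), and FOXO1 with the replicate block (0.0553).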

How the results depend on the processing

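Over 2496 values of members and named pathway genes under the alternatives, 2383 kept their direction and side of the threshold, 67 no longer passed, 10 newly passed and 36 changed sign, 0 of those with a call on either side. The cause of each shift below was not tested. The lower IGFBP5 in SW480 and its differing response passed under every alternative run.

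Sign changes at values near 0 came with median scaling (IGFBP6 in HCT116 0.10, IGF2R in SW480 -0.068 and averaged over the lines 0.034, IGFBP3 in SW480 minus HCT116 0.0043) and with the mean of a gene's probes (IGFBP3 in HCT116 0.11, in LS174T -0.068, in LS174T minus HCT116 0.17 and in SW480 minus HCT116 0.27). Leaving out 1 array at a time, calcitriol minus ethanol ran from -0.081 to 0.022 for IGFBP6, -0.13 to 0.011 for IGFBP7 and -0.035 to 0.059 for IGF2R in SW480, from -0.035 to 0.042 for IGFBP2, -0.0026 to 0.20 for IGFBP3, -0.10 to 0.00047 for IGFBP5 and -0.21 to 0.0030 for IGFBP7 in LS174T, and from -0.11 to 0.093 for IGFBP3, -0.050 to 0.25 for IGFBP5 and -0.10 to 0.041 for IGFBP6 in HCT116. Averaged over the lines it ran from -0.043 to 0.11 for IGFBP2, -0.23 to 0.016 for IGF1R and -0.020 to 0.012 for IGF2R. Between lines in ethanol it ran from -0.051 to 0.16 for IGFBP3 in SW480 minus LS174T, -0.13 to 0.085 for IGFBP3 in SW480 minus HCT116 and -0.38 to 0.068 for IGFBP7 in LS174T minus HCT116.

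Members passing in LS174T numbered 1, but 2 without background correction, 0 with median scaling, 0 in the 2 groups alone and 0 to 2 with an array left out. In the average the 1 became 0 with a variance trend and robust fit and 0 to 1 with an array left out, and for differing responses it became 2, IRS2 joining, without background correction (adjusted p = 0.0153) and with the trend and robust fit (0.0264).

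All genes passing in SW480 numbered 338, but 516 without background correction, 17 in the 2 groups alone and 118 to 335 with an array left out (118 and 216 without SW480 calcitriol replicate 1 and 2, 214 and 124 without SW480 ethanol replicate 1 and 2). In LS174T the 829 became 504 with median scaling and 453 in the 2 groups alone. In HCT116 the 10 became 23 without background correction, 24 with trend and robust fit, 3 in the 2 groups alone and 3 to 13 with an array left out. The average's 375 became 219 with median scaling, and the 761 with differing responses became 1261 without background correction. Median scaling moved the higher share of passing genes to 6.56% (quantiles gave 32.0%) in SW480, 65.1% (46.4%) in LS174T, 100% (70.0%) in HCT116, 59.8% (48.0%) averaged, 59.9% (49.9%) in SW480 minus LS174T and 66.0% (50.9%) in SW480 minus HCT116, and it moved the median of all genes to 0.121 in SW480 minus LS174T and 0.202 in SW480 minus HCT116.

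Same-numbered arrays of calcitriol and ethanol did not deviate together (correlations -0.0896 to 0.00122 in the 3 lines), so no pairing was seen in the values. The labels do not say whether the numbers pair them. With the replicate block, 287 genes passed in SW480, 755 in LS174T and 5 in HCT116, with the same members in each. The block ended the FOXO1 call for differing responses (adjusted p = 0.0553) and the TSC1 call in LS174T (0.0577). Slide as a block was not run, since the headers give no slide. Precision is limited by 3 arrays a group, and near background by signal, which leaves IGF2 unmeasured and IGFBP3 barely measured.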
